A study of Mus musculus with 24 samples.

Results

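The comparison described here sets bottom-middle villus epithelium, zone V3, against the zone just below it, V2 (bottom), in the mouse jejunum. Its members were chosen by the zone label: the 4 V2 and 4 V3 libraries, 8 of the 24 libraries in the count table, taken as pairs because each mouse gave 1 library of each zone. The animals were 4 male C57BL/6 mice, 10 weeks old, on regular chow and otherwise untreated, with no allele or treatment that separates the groups. Jejunal epithelium was released with EDTA, stained for CD73 (the protein of Nt5e) and CD26 (the protein of Dpp4), and sorted into 6 populations from V1 (the most bottom) to V6 (the tip), and poly(A) RNA was profiled with mcSCRB-seq, a 3′-end method that counts unique molecular identifiers (UMIs), so that copies of 1 captured molecule made by PCR are counted once. A zone is therefore a sorted population of many cells and not a measured distance along the villus.

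Enterocytes, the absorptive cells that make up most of the villus surface, are born in the crypt and move up the villus until they are shed at the tip. On the way they exchange a programme of growth and protein synthesis for one of digestion, nutrient uptake and, near the tip, nucleotide metabolism. Mucus-secreting goblet cells and hormone-secreting enteroendocrine cells travel among them as minorities, and Paneth cells, which secrete antimicrobial peptides, stay in the crypt.

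The V2 and V3 libraries held 1247768 to 2266261 UMIs each, with a median of 1510360.5, and 9328 of the 17811 genes in the table had enough counts to be tested. Levels are given as UMI counts scaled to a common library size (CPM, counts per 1e+06 UMIs), scaled between libraries by TMM, and differences as log2 fold changes of V3 over V2 with their standard error (SE) from 1 edgeR quasi-likelihood model over all 24 libraries that holds a mean for each zone and a term for each mouse. Called genes have a Benjamini-Hochberg adjusted p under 0.05 over all 9328 genes. CPM from a 3′-end method does not depend on transcript length, and V2 and V3 of the same mouse shared 1 sequencing index, so each V2 to V3 difference was taken within an index. In bulk libraries, fewer cells of a type and less RNA per cell cannot be told apart.

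The sort marker Dpp4, a brush border peptidase, served as a check of the labels. Its level was 329, 252, 346 and 374 CPM in V2 of mice 1 to 4 and 488, 381, 496 and 501 CPM in V3. Every V3 library stood above every V2 library, and the log2 difference was 0.52 (SE 0.14, adjusted p 0.021 by edgeR). Nt5e was near the detection limit here, with 2.52 CPM in V2 and 4.29 CPM in V3 on average, was higher in 3 of 4 mice and did not pass the test (log2 difference 0.90, adjusted p 0.38). The enterocyte markers Fabp1, Fabp2, Apoa1, Apoa4, Alpi, Vil1 and Krt20 were all present and all rose, whereas Sis did not pass the test. Crypt markers were low in both zones: Lgr5 had 12.6 and 10.4 CPM, Mki67 9.46 and 10.7 CPM, and Olfm4 6.58 and 5.54 CPM in V2 and V3.

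From V2 to V3, some genes of lipid absorption, brush border digestion, amino acid uptake, drug metabolism and purine handling rose. Nearly the whole goblet cell list fell, by 0.57 to 1.77 on the log2 scale. In all, 447 genes passed the test, 4.79% of those tested, of which 280 were higher in V3 (3%) and 167 lower (1.79%). The risen genes had a median log2 difference of 0.72 and the fallen genes of -0.91. A change of more than 2-fold was reached by 55 risen and 74 fallen genes. The direction was the same in all 4 mice for 271 of the 280 and for 165 of the 167. Among all tested genes, 14.6% were higher and 13.4% lower in V3 in 4 of 4 mice. A test with a term for each mouse favours genes that move alike in every mouse, so this agreement is not separate support. Levels of V2 and V3 did not overlap at all for 112 risen and 68 fallen genes. Over all tested genes this held for 2.69% with V3 above and 2.05% with V3 below.

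**Figure D1:**
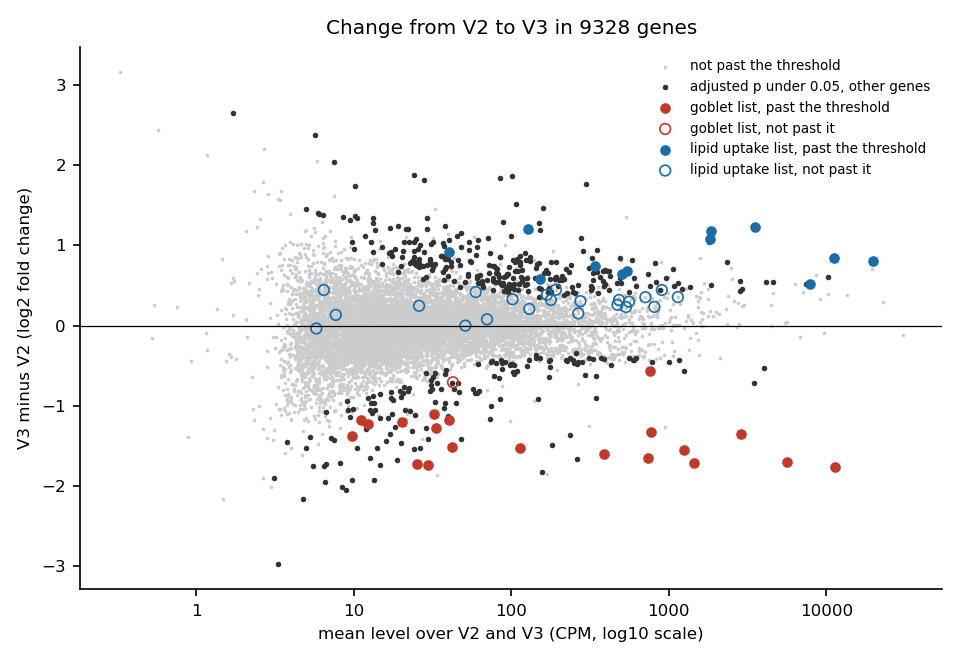
Each point is 1 of the 9328 tested genes, with its mean level over the 8 libraries on the x axis (CPM, log10 scale) and its log2 difference, V3 minus V2, on the y axis. Goblet list genes (red, filled where past the threshold) lie far below 0 up to the highest levels, where Zg16 sits at -1.77, and lipid uptake genes past the threshold (blue, filled) lie above 0 at 0.51 to 1.24.

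These counts rested on the pairing by mouse. Without the mouse term the same contrast called 16 genes higher and 11 lower. Leaving out mouse 1 gave 158 higher and 88 lower, leaving out mouse 3 gave 133 and 58, and leaving out mouse 4 gave 163 and 80. Scaling by total UMIs in place of TMM moved the split from 62.6% of calls higher to 43.8%, with 212 higher and 272 lower. Within the gene lists described here, calls without the mouse term were found for 5 goblet, 3 purine and villus tip, 2 amino acid transport and 1 hydrolase gene and for no other list. Scaling by total UMIs shifted the median over all genes from -0.01 to -0.09, and no named gene that passed the test changed direction under it.

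Lipid uptake and chylomicron assembly was the list with the most risen genes by count. Brush border hydrolases, with 10 of 18 tested members risen, had a larger share. Dietary fat enters enterocytes as fatty acids and monoglycerides, is rebuilt into triglyceride and leaves in chylomicrons, particles carried by apolipoproteins. Of the lipid list's 34 tested members 12 rose and none fell, beside 3% of all tested genes called higher and 1.79% lower. The list's median log2 difference was 0.37 against -0.01 over all genes. Its summed share of UMIs was higher in V3 in 4 of 4 mice, 4.38% ± 1.17 (SD, n = 4) in V2 and 6.84% ± 1.24 in V3, where an exact permutation test over the 4 pairs gave the smallest p that its 16 arrangements allow, which cannot pass 0.05.

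Apoa4, a chylomicron apolipoprotein (chr9:46240696-46243459, GRCm38, plus strand), had 1932, 1296, 3171 and 2059 CPM in V2 of mice 1 to 4 and 4954, 3321, 7493 and 4024 CPM in V3. The lowest V3 library lay above the highest V2 library, though narrowly, and mouse 3 was highest in both zones. The log2 difference was 1.24 (SE 0.17, adjusted p 6.3e-05), a 2.35-fold rise. Apob, the structural protein of the particle, had 92.4, 24, 127 and 76.1 CPM in V2 and 211, 83.1, 250 and 165 CPM in V3. Mice differed more than zones here, so the groups overlapped, yet Apob was higher in V3 in every mouse (log2 difference 1.20, SE 0.25, adjusted p 0.0083). Apoc2 (1.18), Apoc3 (1.08) and Apoa1 (0.80), apolipoproteins of the same particles, also rose.

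The cytosolic fatty acid carriers Fabp2 and Fabp1 rose by 0.85 and 0.51 on the log2 scale, from 8150 to 14302 CPM and from 6461 to 9210 CPM on average. Among transporters at the membrane, the fatty acid receptor Cd36 rose by 0.92, the acyl-CoA synthetase Slc27a4 by 0.68 and the sterol transporter Npc1l1 by 0.58. Plin3, a lipid droplet coat protein, rose by 0.64. Creb3l3, a transcription factor of lipid metabolism, went from 253 ± 24.5 CPM (SD, n = 4) to 423 ± 39.9 CPM with no overlap (0.75, SE 0.14, adjusted p 0.00064).

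**Figure D2:**
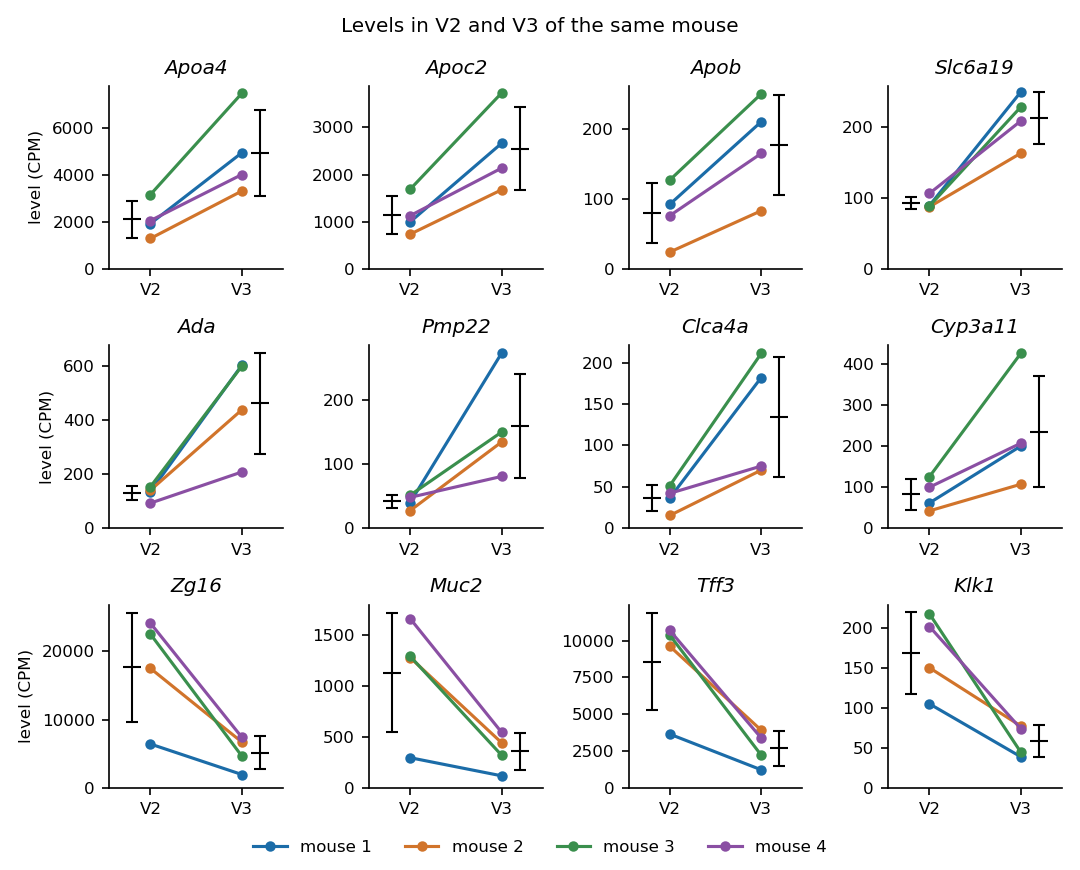
Levels in CPM (y axis, linear, from 0) of 12 genes in V2 and V3 (x axis), with 1 line per mouse and the mean ± SD of 4 mice beside each zone. All 4 lines run up for Apoa4, Apoc2, Apob, Slc6a19, Ada, Pmp22, Clca4a and Cyp3a11 and down for Zg16, Muc2, Tff3 and Klk1, and mouse 1 is lowest for the last 4 genes in both zones.

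Brush border hydrolases cut sugars and peptides at the cell surface. Of 18 tested disaccharidases, peptidases and phosphatase genes 10 rose and none fell (median 0.58), with 6 risen when mouse 1 or mouse 3 was left out. Alpi, intestinal alkaline phosphatase (chr1:87098002-87101606, minus strand), had 336, 328, 357 and 383 CPM in V2 and 680, 616, 622 and 616 CPM in V3. The groups were far apart and tight within each zone, and the log2 difference was 0.85 (SE 0.15, adjusted p 0.00041). Trehalase (Treh) rose by 0.87, the endopeptidases Mep1a and Mme by 0.76 and 0.66, and lactase (Lct) by 0.71. Ace, Ggt1 and Xpnpep2, peptidases or a glutathione-cleaving enzyme of the same surface, rose as well. Sucrase-isomaltase (Sis) had 885 ± 347 CPM (SD, n = 4) in V2 and 868 ± 349 CPM in V3, a log2 difference of -0.01 with an SE of 0.28, and went up in 2 mice and down in 2. Anpep, the most abundant peptidase of the list, had 1381 and 1970 CPM and was higher in 4 of 4 mice without passing the test (0.52, adjusted p 0.19).

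Amino acid and peptide transporters carry the products inward. Of 15 tested members 6 rose and none fell (median 0.27), and 3 rose without mouse 1 or without mouse 3. Slc6a19, the main brush border carrier of neutral amino acids (chr13:73679745-73704865, minus strand), had the smallest adjusted p of all genes. It had 89.3, 87.5, 88.5 and 106 CPM in V2 and 250, 163, 228 and 209 CPM in V3. V2 values were nearly the same in 3 mice and every V3 value lay well above them, with a log2 difference of 1.19 (SE 0.14, adjusted p 4.9e-06). Slc7a15 rose by 1.16, the di- and tripeptide transporter Slc15a1 by 0.67, and the cystine and dibasic amino acid transporter subunit Slc3a1 by 0.61; Slc36a1 and Slc43a2 completed the 6.

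Among 19 genes of sugar transport and metabolism (median 0.22) Slc5a12 and Pck1 passed the test, beside 3% of all tested genes called higher. At an unadjusted p under 0.05 there were 10. Both called genes are low genes in which mouse 1 stood highest in both zones. Without mouse 1 the list had 1 call and without mouse 4 none. Slc5a12, a sodium-coupled monocarboxylate transporter, went from 12.8 to 30.2 CPM (1.20, adjusted p 0.0032), and Pck1, the gluconeogenic enzyme, from 17.2 to 35.5 CPM (1.00, adjusted p 0.012). The glucose carriers did not pass: Slc5a1 had 1366 and 1825 CPM (0.42, adjusted p 0.20), Slc2a2 153 and 208 CPM (0.46, adjusted p 0.22), and the fructose carrier Slc2a5 91.7 and 103 CPM (0.16, adjusted p 0.73).

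Vitamins and minerals were represented by few called genes, beside 3% of all tested genes called higher. Slc46a1, the proton-coupled folate transporter, listed here with iron and metal handling because it also carries heme, had 65.1, 32, 56.7 and 47 CPM in V2 and 148, 68.9, 191 and 100 CPM in V3. The lowest V3 value only just cleared the highest V2 value, and the log2 difference was 1.29 (SE 0.17, adjusted p 2.5e-05), the sole call among 13 members. Of 10 vitamin A genes Rbp2, the retinol carrier (0.68), and Bco1, the carotene-cleaving enzyme (1.34), rose, the latter from 7.52 to 19.1 CPM with mouse 1 far above the others in V3, and the list had 1 call without that mouse. The calcium pump Atp2b1 rose by 0.65, as the only 1 of 5 calcium and vitamin D genes, and its call was lost without mouse 2 or mouse 4.

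Detoxification genes that passed the test mostly rose. Of 37 tested xenobiotic and glutathione genes 9 rose and 1 fell (median 0.24). Cyp3a11, a drug-oxidizing cytochrome P450 (chr5:145854426-145879964, minus strand), had 61.6, 42.3, 126 and 99.9 CPM in V2 and 200, 107, 426 and 207 CPM in V3. Each mouse rose from its own V2 level and mouse 2 was lowest in both zones, so the groups overlapped while the paired log2 difference was 1.47 (SE 0.17, adjusted p 6.9e-06). The related Cyp3a13, Cyp3a25, Cyp2b10, Cyp2c55, Cyp2c65, Cyp2d26 and Cyp4v3 also rose, as did Gpx4, which reduces lipid peroxides. Close copies exist in the Cyp3a and Cyp2c families, and how reads were split among them is not given in the sources used here. Gsta4, a glutathione transferase for lipid peroxidation products, fell by 1.00 on the log2 scale (adjusted p 0.00064), and this difference went to 0.00 once the goblet score described below was in the model.

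The list of purine metabolism and villus tip genes held several of the largest rises in the whole comparison, with 5 of 20 members up and none down (median 0.56), and 8 up when mouse 2 was left out. Ada, adenosine deaminase (chr2:163726584-163750239, minus strand), had 135, 141, 154 and 92.9 CPM in V2 and 603, 438, 599 and 208 CPM in V3. All V3 values were above all V2 values, with mouse 4 lowest in both zones, and the log2 difference was 1.77 (SE 0.28, adjusted p 0.001). Pmp22, a membrane protein best known from myelin, had 40, 27.4, 51.4 and 48 CPM in V2 and 272, 134, 150 and 80.6 CPM in V3. Its rise ranged from the steep change of mouse 1 to the shallow change of mouse 4, without overlap (1.87, SE 0.27, adjusted p 0.00059). Enpp3, a nucleotide pyrophosphatase, stood between 49.1 and 54.1 CPM in all V2 libraries and at 206, 92.3, 246 and 98 CPM in V3 (1.52, SE 0.32, adjusted p 0.0096). Susd2 rose by 1.81 from a low level, 12 to 44 CPM, and the nucleoside transporter Slc28a1 completed the 5.

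Clca4a, of the calcium-activated chloride channel regulator family, had 36.5, 15.4, 51.4 and 42.1 CPM in V2 and 182, 70.2, 211 and 75.1 CPM in V3. It rose without overlap (1.83, SE 0.23, adjusted p 6.3e-05), and its neighbour Clca4b rose by 0.94, though near-identical copies in this cluster make the split of reads between them uncertain. Abhd2, a lipase of the alpha/beta hydrolase family, rose by 1.12, from 62.5 to 136 CPM.

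**Figure D3:**
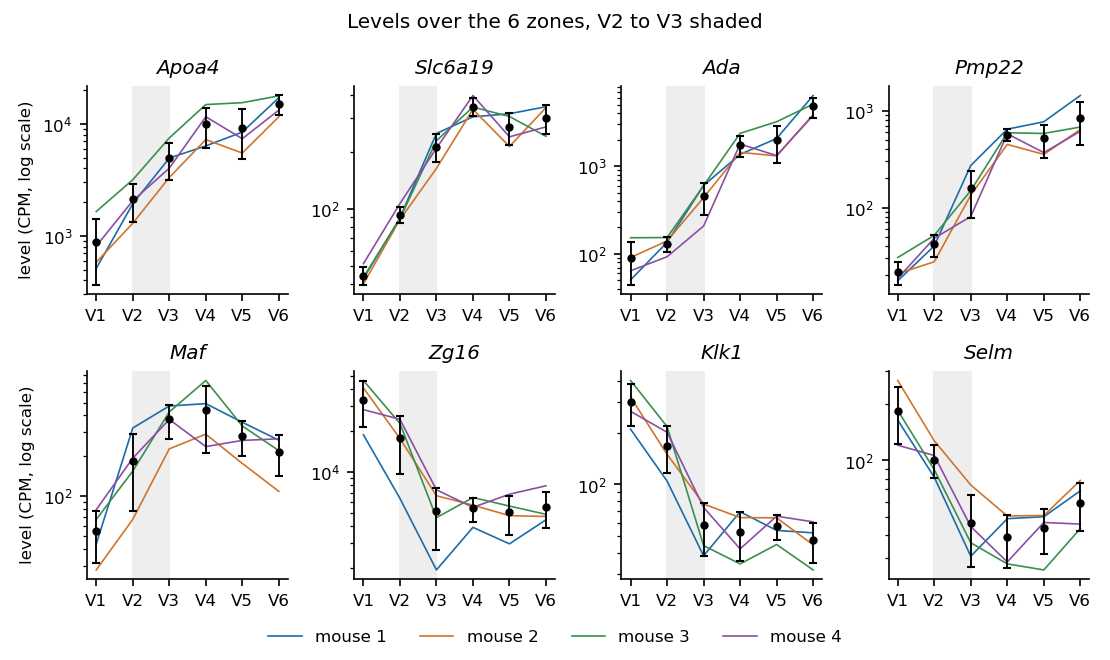
Levels of 8 genes (CPM, log10 scale) over all 6 zones, 1 line per mouse, with points and bars giving the mean and SD of 4 mice and the V2 to V3 step shaded. Ada and Pmp22 go on rising steeply into V4, whereas Zg16, Klk1 and Selm reach their lower range by V3.

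Most structural genes of the brush border that passed the test rose. Of 25 microvillus and terminal web genes 10 rose and 2 fell (median 0.34), and leaving out mouse 1 or mouse 4 gave 6 risen and 1 fallen. Espn, an actin bundler of microvilli (chr4:152120331-152152371, minus strand), had 143, 152, 249 and 244 CPM in V2 and 323, 294, 434 and 435 CPM in V3. Its groups did not overlap, and the log2 difference was 0.93 (SE 0.13, adjusted p 2.5e-05). The linker ezrin (Ezr, 0.61) and villin (Vil1, 0.45) rose, with Cdhr2 and Cdhr5 (cadherins that link microvilli), Pls1 (another bundler), Slc9a3r1 (a scaffold), Plec and Krt20. The 2 that fell were Krt18 and Krt19, keratins like the risen Krt20. Krt18 had 381, 557, 428 and 419 CPM in V2 and 239, 338, 185 and 204 CPM in V3, all V3 values below all V2 values (-0.91, SE 0.14, adjusted p 7e-05), and Krt19 fell by 0.56. Among 27 junction genes Ceacam20 alone rose (0.72), beside 3% of all tested genes called higher. Its call was lost without mouse 2 or mouse 3. Epcam, the most abundant of the list, had 1400 and 1771 CPM without passing the edgeR test (0.34, adjusted p 0.11).

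Of 38 transcription factors and nuclear receptors 4 were up, beside 3% of all tested genes, and none down (median 0.10), with 2 up without mouse 1 or mouse 3. Maf, a leucine zipper factor, had 322, 66.9, 154 and 192 CPM in V2 and 471, 225, 425 and 374 CPM in V3. Mouse 2 was lowest in both zones and mouse 1 highest, so the groups overlapped, and the rise of 1.10 (SE 0.29) passed with an adjusted p of 0.038. The xenobiotic receptor Nr1i3 rose by 0.61 and Creb3l3 by 0.75. The intestinal identity factors Hnf4a (145 and 155 CPM, 0.09, adjusted p 0.80) and Cdx2 (87.7 and 90.7 CPM, 0.04, adjusted p 0.91) did not pass.

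The promoter windows of 3 risen genes are shown because they share the letters CAAAGTCCA, a core known to be bound by HNF4 factors. They are the 120 bases just upstream of each RefSeq gene start on GRCm38.p6, written 5′ to 3′ on the gene's strand, with the motif or its reverse complement TGGACTTTG in capitals. The windows lie at chr1:87101607-87101726 (Alpi, minus strand), chr17:85028227-85028346 (Slc3a1, plus) and chr9:44673113-44673232 (Treh, plus).
Alpi: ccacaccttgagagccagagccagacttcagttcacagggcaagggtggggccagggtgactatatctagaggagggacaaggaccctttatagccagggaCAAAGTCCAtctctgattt
Slc3a1: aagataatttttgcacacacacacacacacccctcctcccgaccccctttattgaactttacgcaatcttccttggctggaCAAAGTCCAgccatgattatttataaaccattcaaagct
Treh: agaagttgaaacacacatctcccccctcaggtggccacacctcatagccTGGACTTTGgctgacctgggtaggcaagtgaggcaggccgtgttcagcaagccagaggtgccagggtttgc

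The match begins 19 bases before the start in Alpi, 39 in Slc3a1 and 71 in Treh, the last in reverse. Over the 250 bases upstream of 27025 genes in the RefSeq table, either strand, 122 genes held it (0.451%). Of tested genes with a window 39 of 6641 held it (0.587%), among them 7 of 208 risen and 0 of 88 fallen genes. The 3 genes shown were picked after the matches were seen. Cyp3a11 also held a match, but that match lies inside the gene span GENCODE gives, as the annotations differ on the gene's start, and its window is not shown. The table covered the groups unevenly, with a window for 74.3% of the risen, 52.7% of the fallen and 71.2% of the tested genes. No test of risen against other genes was run. A match describes letters only, and binding was not measured in these libraries.

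Antigen presentation genes that passed the test rose by modest amounts. Of 18 MHC class I and proteasome genes 5 rose (median 0.25) and of 9 MHC class II genes 3 rose (median 0.38), with none lower in either list. H2-Ab1, a class II chain that enterocytes carry to present peptides to T cells, had 512, 585, 830 and 1103 CPM in V2 and 741, 872, 1277 and 1716 CPM in V3. Mice differed widely, with mouse 4 highest in both zones, and each rose by a like factor (0.59, SE 0.13, adjusted p 0.0035). H2-Aa (0.68) and H2-Eb1 were the other class II genes. In class I, B2m (0.43), H2-K1 (0.49), H2-Q1, H2-Q2 and H2-T3 rose. H2 genes have close copies, so single values are uncertain, and the class I count was 3, 1, 0 and 2 without mouse 1, 2, 3 and 4.

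Markers of lymphocytes and other leukocytes were present at very low levels. Their summed share went from 0.00531% of UMIs to 0.0115%, and was highest in mouse 3. It was higher in V3 in 4 of 4 mice, though nearly equal in mouse 4 (0.0047% in both zones), and as a share of the UMIs outside the goblet list it was higher in 3 of 4. All 22 leukocyte markers in the table had at least 1 UMI in each zone, while 5 reached the test and 0 passed in edgeR, DESeq2 or limma-voom (2 at an unadjusted p under 0.05). Ccl5, the most abundant, had 17.6 and 47.8 CPM (adjusted p 0.25). Their part in the class I and II differences was not tested. Interferon response genes as a list showed no edgeR call in the upward direction among 25 members (median 0.26), beside 3% of all tested genes called higher. Of the 25, 19 had a positive difference, and 9 had an unadjusted p under 0.05 in either direction. DESeq2 called 2 and limma-voom 1, also counted in either direction.

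Of all lists the goblet cell genes had the most members that fell. Of 21 tested goblet list genes 20 fell and 0 rose, with a median log2 difference of -1.38, and only Fxyd3 did not pass (-0.71, adjusted p 0.12). Leaving out 1 mouse at a time gave 12 to 18 calls, with the fewest without mouse 3.

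Zg16, a lectin of the mucus layer and the most abundant goblet transcript here (chr7:127050156-127087328, minus strand), had 6399, 17503, 22530 and 24137 CPM in V2 and 1923, 6687, 4624 and 7388 CPM in V3. Mouse 1 was far below the others in both zones and alone made the groups overlap. Within each mouse Zg16 fell, by 1.77 on the log2 scale (SE 0.26, adjusted p 0.0006). Muc2, the gel-forming mucin, had 294, 1277, 1290 and 1660 CPM in V2 and 116, 441, 319 and 544 CPM in V3. The pattern over mice was that of Zg16 (-1.65, SE 0.29, adjusted p 0.0029). Tff3, a trefoil peptide, had 3636, 9609, 10364 and 10682 CPM in V2 and 1211, 3904, 2207 and 3374 CPM in V3 (-1.70, SE 0.28, adjusted p 0.0016).

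Other mucus components fell by similar amounts: Clca1, a mucus metalloprotease, by 1.71, Fcgbp, a mucin-bound protein, by 1.55, Spink4, a peptidase inhibitor, by 1.35, and Agr2, the disulfide isomerase needed for mucin folding, by 1.33. The chemokine Ccl6 fell by 1.60 and the kallikrein Klk1 by 1.53. Klk1 had 105, 150, 217 and 201 CPM in V2 and 38.5, 77, 44.1 and 73.5 CPM in V3. Its groups did not overlap. The secretory lineage factors fell as well, Atoh1 from 44.1 ± 10.6 CPM (SD, n = 4) to 20.7 ± 3.87 CPM and Spdef from 15.5 to 6.81 CPM. The smallest fall among the called members was that of Guca2a, a guanylate cyclase activator that enterocytes also express (-0.57, adjusted p 0.035).

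Summed over the list, goblet transcripts made up 1.72%, 5.06%, 4.89% and 4.97% of UMIs in V2 of mice 1 to 4 and 0.631%, 1.86%, 1.07% and 1.54% in V3. The share was lower in V3 in 4 of 4 mice, and mouse 1 was low in both zones. The exact permutation test over 4 pairs gave the smallest p it allows.

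**Figure D4:**
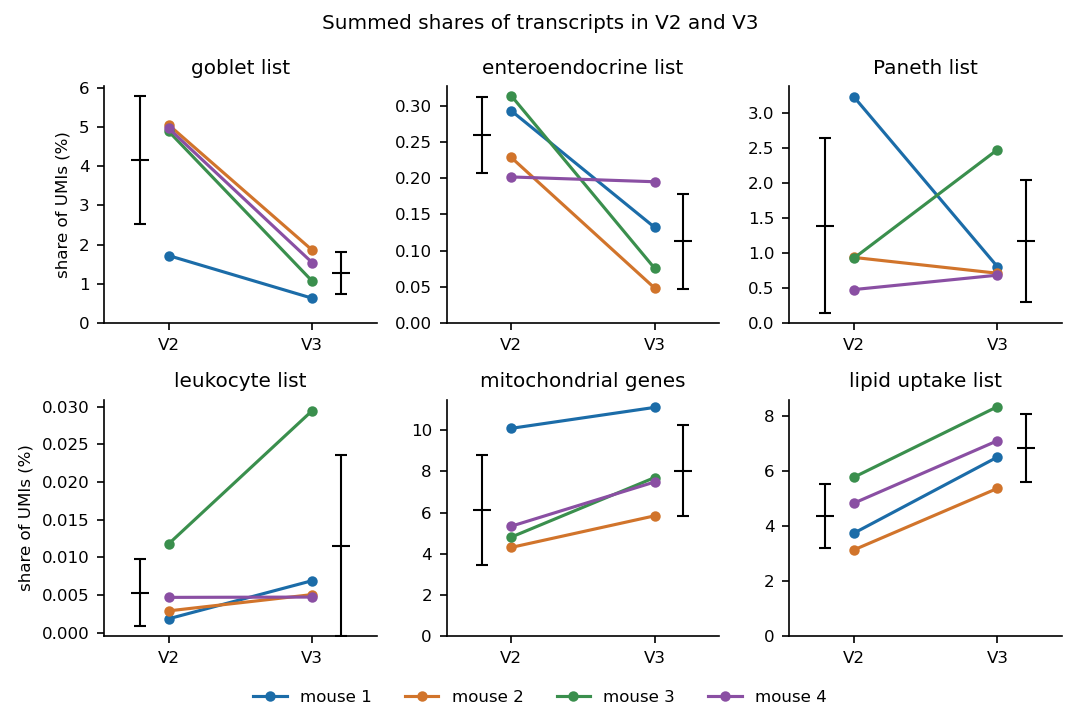
Summed share of UMIs (y axis, %) of 4 marker lists, the mitochondrial genes and the lipid uptake list in V2 and V3, with 1 line per mouse and mean ± SD of 4 mice beside each zone. Goblet and enteroendocrine shares go down and lipid and mitochondrial shares go up in all 4 mice, while the Paneth share goes down in 2 mice and up in 2.

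When the mean log2 level of the goblet list was added to the model as a covariate, 0 genes passed the test in either direction, with 454 at an unadjusted p under 0.05 against 1733 (18.6%) without it. Zone and mouse together explained 93.6% of the variance of this score, which left little of it apart from zone, and the median SE of the called genes grew from 0.17 to 0.30. The direction of the risen genes was kept in 279 of 280 cases and their median moved from 0.72 to 0.57. Of the 147 fallen genes outside the goblet list 123 kept their direction, and the median over all 167 fallen genes moved from -0.91 to -0.32. The score is the mean of the goblet list itself, so a move of list members toward 0 was built into this model. Of the 167 fallen genes, 20 are such members. The goblet list's median went from -1.38 to -0.05, and Agr2, Klk1 and Spink4 went to 0.07, 0.03 and 0.17.

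Enteroendocrine genes had mostly lower levels in V3 but none passed the edgeR test, with 5 of 16 at an unadjusted p under 0.05, 2 called by DESeq2 and 1 by limma-voom. Their median was -0.95, and the summed share went from 0.260% to 0.113%, lower in 4 of 4 mice. Gip, the most abundant hormone gene, had 1519, 1054, 1643 and 1080 CPM in V2 and 669, 182, 324 and 1096 CPM in V3, lower in 3 mice and about equal in mouse 4 (-1.26, SE 0.67, adjusted p 0.34). Sct had no overlap between zones (429 and 189 CPM) and an adjusted p of 0.073. Paneth genes gave 0 edgeR calls among 14 (1 at an unadjusted p under 0.05, 1 called by DESeq2 and 0 by limma-voom), a median of 0.09 and shares of 1.39% and 1.17%, with mouse 1 highest in V2 and mouse 3 highest in V3. The most abundant of them, Defa24, had 14307, 4412, 4137 and 2249 CPM in V2 and 3896, 3508, 9544 and 3069 CPM in V3, so that mice differed more than zones. Tuft cell markers gave 0 calls among 5 by each of the 3 tools (1 at an unadjusted p under 0.05), with shares of 0.00321% and 0.00518%. For stroma and blood markers 1 gene was tested and none called, and the fibroblast marker Dcn had no UMI in any of the 8 libraries.

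Several other fallen genes lay outside the goblet list, and the cells in which they fell were not identified in these bulk libraries. Ido1, the tryptophan-degrading enzyme and the only interferon response gene called, had 70.8, 506, 151 and 247 CPM in V2 and 18.7, 164, 28.3 and 75.9 CPM in V3. Mice differed by several fold in either zone, with mouse 2 highest, and each fell (-1.82, SE 0.39, adjusted p 0.011). The call was lost without mouse 2 or mouse 3. Selm, a selenoprotein of the endoplasmic reticulum, fell from 101 ± 20.4 CPM (SD, n = 4) to 46.3 ± 19.2 CPM without overlap (-1.17, adjusted p 0.00039). S100a6, a calcium-binding protein, fell from 265 to 95.5 CPM, just past the threshold (-1.48, adjusted p 0.049).

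Cytosolic ribosomal proteins were lower by a small and uniform amount. Of 81 members 80 had a negative difference, with a median of -0.36, and 9 passed the edgeR test (Rpl15, Rpl23, Rpl27a, Rps2, Rps20, Rps28, Rps29, Rps6 and Rps9). At an unadjusted p under 0.05 there were 59, and DESeq2 called 23 and limma-voom 20. Their summed share was lower in V3 in 4 of 4 mice, at 5.15% ± 0.854 (SD, n = 4) of UMIs in V2 and 3.85% ± 0.568 in V3 (the smallest p of the exact permutation test). Rps29 had 1462, 1144, 893 and 1146 CPM in V2 and 947, 966, 577 and 934 CPM in V3 (-0.45, SE 0.12, adjusted p 0.019). The groups overlapped and mouse 3 was lowest. Rplp0, the most abundant, had 2392 and 1822 CPM and did not pass (-0.40, adjusted p 0.074). The count of 9 was 0 when mouse 1, 3 or 4 was left out and 27 under scaling by total UMIs. Ribosomal protein genes have many processed copies in the genome, so counts of single genes are uncertain.

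Of 41 translation factors Eef1a1 (-0.43), Eif3i (-0.50) and Eif2s1 fell, beside 1.79% of all tested genes called lower. None of the 3 calls remained without mouse 3 or mouse 4. Nucleolus and ribosome assembly (26 genes, median -0.17), protein folding and secretion in the endoplasmic reticulum (35, -0.14), stem and crypt (15, -0.24) and cell division genes (30, -0.16) gave 0 calls each by edgeR, with 1, 8, 1 and 1 genes at an unadjusted p under 0.05. DESeq2 called none of them and limma-voom 1, in the nucleolus list. In sterol synthesis 2 of 21 genes fell, beside 1.79% of all tested genes called lower. They were Cyp51 (-0.81, from 38.5 to 22.5 CPM) and Hmgcs1 (-0.65, from 101 to 65.3 CPM). Hmgcs1 went to 0.15 with the goblet score in the model, and both calls were lost without mouse 1 or mouse 3.

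Genes encoded in the mitochondrial genome were higher in V3, with 3 of 11 called and all 11 positive (median 0.48), and 1 and 0 called without mouse 3 and mouse 4. mt-Co1, a subunit of complex IV, had 1008, 881, 632 and 732 CPM in V2 and 1512, 1470, 1073 and 1219 CPM in V3, without overlap (0.70, SE 0.17, adjusted p 0.011). mt-Nd5 (0.57) and mt-Nd2, subunits of complex I, were the others, whereas the far more abundant mt-Cytb had 20436 and 25149 CPM without passing (0.30, adjusted p 0.38). The 74 nuclear genes of oxidative phosphorylation had a median of 0.00 with 0 calls by each of the 3 tools (1 at an unadjusted p under 0.05). The summed mitochondrial share, often read as a sign of RNA or cell quality, went from 6.14% ± 2.67 (SD, n = 4) to 8.04% ± 2.21 of UMIs and was higher in V3 in 4 of 4 mice, and its part in the other differences was not tested. Fatty acid oxidation (24 genes, median 0.04), glycolysis (11, 0.11) and immediate early genes (23, 0.33) gave 0 edgeR calls, with 3, 1 and 9 genes at an unadjusted p under 0.05. DESeq2 called 1, 1 and 3 of them, and limma-voom 1, 0 and 1. The smallest edgeR adjusted p in the fatty acid oxidation list was 0.057. Among the immediate early genes Jun came nearest, with 24.5 and 55.1 CPM and no overlap (1.15, adjusted p 0.064).

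Of 19 antimicrobial and barrier genes 2 rose and 1 fell, beside 3% of all tested genes called higher and 1.79% lower. Without mouse 4 the list had 0 calls in either direction. Pigr, which carries IgA across the epithelium, rose from 2432 ± 118 CPM (SD, n = 4) to 3355 ± 249 CPM (0.46, adjusted p 0.043), and the adhesion molecule Ceacam1 rose by 0.58. Lypd8, a secreted protein that binds bacterial flagella, fell from 4790 to 3281 CPM (-0.53, adjusted p 0.027). Reg3b, a lectin that kills bacteria and 1 of the most abundant transcripts in both zones, had 31757 ± 8168 CPM (SD, n = 4) and 29374 ± 6748 CPM (-0.12, SE 0.21, adjusted p 0.83).

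**Figure D5:**
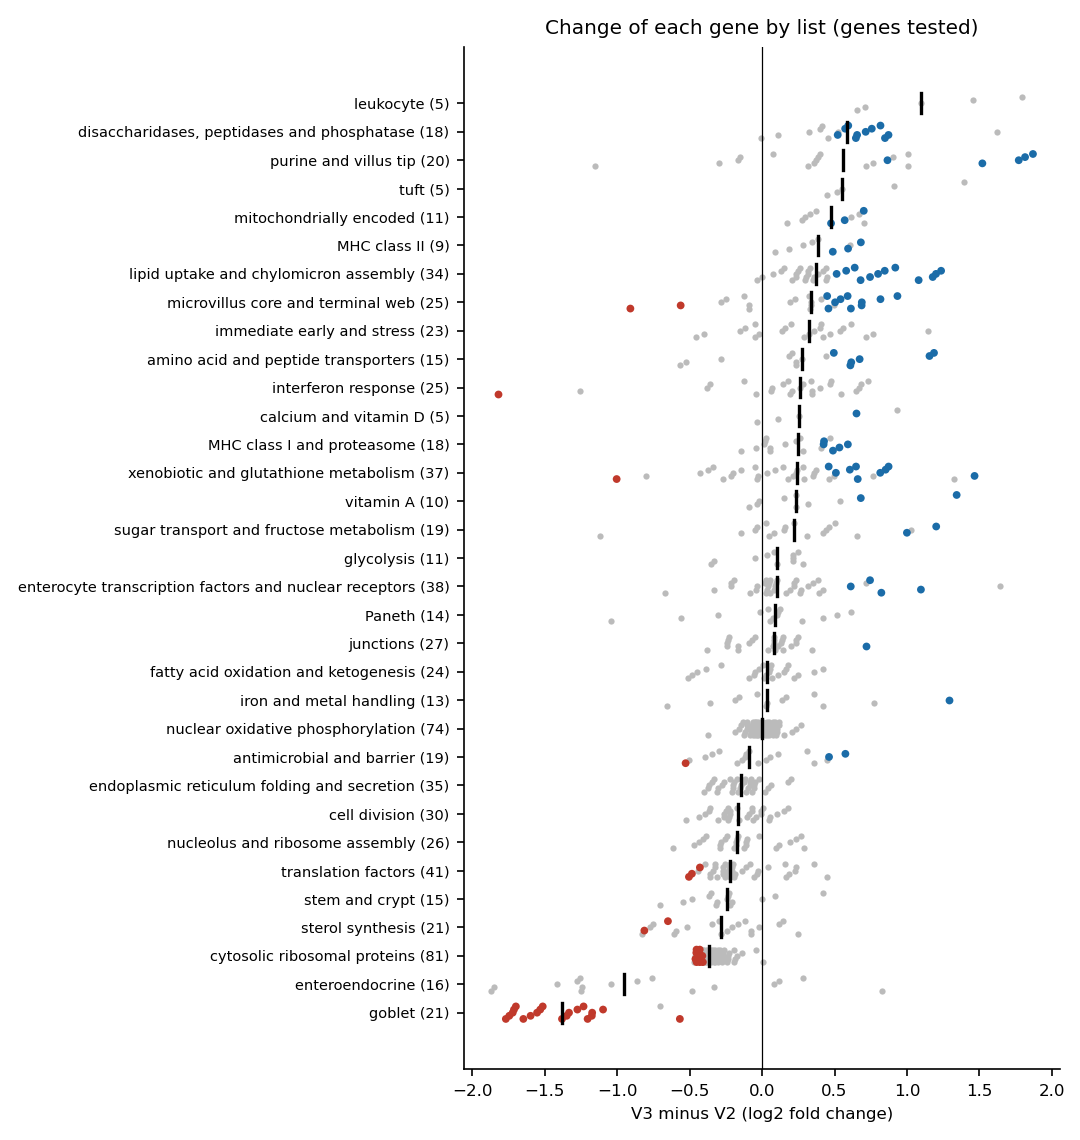
Each point is 1 tested gene of a list (number tested in parentheses), placed by its log2 difference, V3 minus V2 (x axis); blue and red points passed the test upward and downward, grey points did not, and black bars are list medians. The goblet list has the lowest median, -1.38, and the lipid uptake list holds the most blue points, 12 of its 34.

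The steps on either side share libraries with this one, V2 with the step below and V3 with the step above, so the values are set side by side and were compared only by direct tests. The step from V1 to V2 called 1392 genes (14.9%), 858 higher (9.2%) and 534 lower (5.72%), and the step from V3 to V4 called 198 (2.12%), 180 higher (1.93%) and 18 lower (0.193%). In mouse 2, V1 carried another sequencing index than V2. The step from V1 to V2 and the tests against it therefore cross an index in that mouse. Zg16 averaged 33576, 17642, 5155, 5409, 5062 and 5495 CPM from V1 to V6, and Muc2 2419, 1130, 355, 342, 277 and 348 CPM. Both had their low values from V3 upward. Ada averaged 89.6, 131, 462, 1737, 1974 and 4782 CPM, and Pmp22 21.7, 41.7, 159, 568, 521 and 846 CPM, so that V3 held only the first part of their rise. Slc6a19 averaged 44.3, 92.9, 212, 345, 269 and 300 CPM and was highest in V4.

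Direct tests of one step against the other gave 0 genes at an adjusted p under 0.05 in edgeR, with smallest adjusted p of 0.204 and 0.575. Against the step from V1 to V2, 430 genes had an unadjusted p under 0.05 (4.61%), DESeq2 called 0 and limma-voom called 1, Vmn1r229, a vomeronasal receptor gene with under 10 CPM in every zone. Against the step from V3 to V4, 463 genes had an unadjusted p under 0.05 (4.96%), limma-voom called 0 and DESeq2 called 1, Zg16, whose change was lower by 1.96 on the log2 scale than in the step above (adjusted p 0.0062 in DESeq2, 0.71 in edgeR). Among abundant genes with the smallest p in these tests, Mme, Asah2, Gda and Papss2 had smaller differences here than in the step below (Mme 0.66 after 1.70). Tff3, Ccl6 and Krt18 had differences nearer 0 in the step above (Tff3 -1.70, then 0.05). Usp2, Iqgap2, Lpgat1, Aldh1a1 and Slc7a15 had higher values here than in the step above (Iqgap2 0.58, then -0.33), and Sdcbp2 a lower one (-0.07, then 0.65). Parp12, Eif5b, Hist1h4i, Eny2 and Ada had higher values here than in the step below (Parp12 0.59 after -0.25). None of these differences between steps passed the edgeR test.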

How the data were processed

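Poly(A) RNA of sorted jejunal epithelium was sequenced from 24 libraries, 6 zones of 4 mice. The values analysed are the UMI counts for each gene that the authors deposited in a single table, with no normalization; its name gives zUMIs as the counting pipeline. The submitters' processing notes name bcl2fastq 2.15.0.4 and build GRCm38. Which aligner, annotation and filters were used was not given in the sources used here. Counts were analysed as deposited, and 131 of the 17811 genes had no count in any library. Gene positions came from GENCODE M21, which matched 17741 identifiers, and promoter windows from RefSeq (GRCm38.p6), which covered 71.2% of tested genes.

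V3 was compared with V2 in edgeR 4.0.16 (limma 3.58.1, R 4.3.3) with TMM scaling and filterByExpr (minimum count 10, minimum total 15). The robust quasi-likelihood fit over 24 libraries had zone means, mouse as a block and 15 residual degrees of freedom. The SE of a log2 fold change was its size over the square root of the F statistic, and the direction in a mouse was read from log2(CPM + 1). Benjamini-Hochberg adjustment ran over 9328 genes. The smallest library of the whole table held 806541 UMIs, and levels of a few CPM rest on few molecules.

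The pairing rests on the labels, which give the zones of a number as 1 animal. Over 9328 genes, deviations from the zone means of V2 and V3 of the same mouse correlated at r = 0.54, 0.551, 0.445 and 0.506. No library pair of a zone agreed within sampling noise. Summed shares were tested with an exact two-sided permutation test that swaps zones within mice (16 arrangements). Functions were tested on simulated counts.

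Named genes were the 12 called genes that rose and the 12 that fell most (averaging 50 CPM or more over V2 and V3, moving alike in every mouse, provisional names left out), up to 3 called members and the most abundant member of each of 34 gene lists, the 5 smallest adjusted p in each direction of the tests between steps, and Dpp4 and Nt5e. Other members are named to complete a list's count, as background or because a comparison turned on them, and were then chosen with their values known. Some genes that the rule would name are not reported here. The comparison and the lists were chosen with earlier results of these data known. Alternatives were no block, other scalings (DESeq2 size factors, total UMIs), other filters, DESeq2 1.42.0, limma-voom, only the zones compared, a goblet score, the goblet list left out and each mouse left out. V2 and V3 alone without a block was added after seeing the data.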

Additional observations from a re-analysis of the deposited data

Results flagged for a closer look

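Among 238 sets of 4 values examined (named genes and summed shares in V2 or V3), 20 had 1 mouse whose gap to the nearest other value, divided by the range, was above Dixon's critical value for 4 samples (95%). Chance gives about 1 in 20 sets.

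Mouse 1 was lowest in V2 for the goblet share (1.72% of UMIs, the others 4.89% to 5.06%) and for Tff3 (3636 CPM, the others 9609 to 10682 CPM), and highest in V2 for the Paneth share (3.23%, the others 0.477% to 0.936%) and for Slc5a12 (25.5 CPM, the others 7.57 to 10.3 CPM). In V3 mouse 1 was highest for Pck1 (80.6 CPM, the others 15 to 23.7 CPM), Bco1 (44.2 CPM, the others 8.62 to 12.6 CPM) and Alpi (680 CPM, the others 616 to 622 CPM).

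Mouse 2 was lowest in V2 for Nr1i3 (36 CPM, the others 51.4 to 54.1 CPM) and H2-Q1 (43.4 CPM, the others 95 to 99.1 CPM). It was lowest in V3 for Dpp4 (381 CPM, the others 488 to 501 CPM) and H2-Q2 (480 CPM, the others 569 to 587 CPM).

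Mouse 3 was highest in V3 for the Paneth share (2.48%, the others 0.683% to 0.804%), Defa24 (9544 CPM, the others 3069 to 3896 CPM), the leukocyte share (0.0295%, the others 0.00474% to 0.00691%) and Ccl5 (121 CPM, the others 19 to 30.7 CPM), and lowest there for Rps29 (577 CPM, the others 934 to 966 CPM).

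Mouse 4 was highest in V2 for Slc6a19 (106 CPM, the others 87.5 to 89.3 CPM). In V3 it was highest for the fatty acid oxidation enzyme Hadh (754 CPM, the others 556 to 586 CPM), the triglyceride-forming enzyme Dgat1 (987 CPM, the others 828 to 845 CPM) and the histone gene Hist1h4i (293 CPM, the others 4.92 to 53 CPM).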

How the results depend on the processing

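The counts of 280 higher and 167 lower genes were 16 and 11 without the replicate block, 0 and 0 from V2 and V3 alone without it, 585 and 440 from V2 and V3 alone with it, and 0 and 0 with the goblet score in the model. Scaling by total UMIs gave 272 lower genes. Leaving out 1 mouse gave 133 to 252 higher and 58 to 141 lower. DESeq2 size factors, DESeq2 itself, limma-voom, no filter on low counts, a minimum of 50 CPM and leaving out the goblet list kept both counts within 1.5 times. The tests between steps, 0 in edgeR, gave 8 genes above and 15 below the lower step, and 15 above and 42 below the upper step, with no filter on low counts. limma-voom gave 1 (Vmn1r229, below the lower step), DESeq2 1 (Zg16, below the upper step), and a fit of only the zones compared 1 (Sst, above the upper step). The cause was not tested.

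With the goblet score, 413 of the 447 called genes kept their sign, and among the named genes those that changed sign were Agr2 (0.0703), Klk1 (0.0337), Spink4 (0.17), Bcas1 (0.15), Hmgcs1 (0.15), Gsta4 (0.0043), and, not called in the first place, Reg3b (0.0922), mt-Cytb (-0.0342), Prom1 (0.21), Ebp (0.10), Igha (0.0632), Aldh1a1 (-0.0206) and Eny2 (-0.0317). Values near 0 changed sign elsewhere: Defa24 without the replicate block (-0.33, and -0.34 from V2 and V3 alone), under total UMIs (-0.0366), limma-voom (-0.14) and the zones compared only (-0.12), Fth1 (-0.0466) and Eny2 (-0.016) under total UMIs, and Igha in DESeq2 (0.27). Leaving out 1 mouse gave ranges of -0.24 to 0.0192 for Reg3b, -0.011 to 0.0775 for Fth1, -0.54 to 0.60 for Defa24, -0.26 to 0.39 for Igha and -0.18 to 0.0412 for Sdcbp2. The difference in Paneth share ranged from -0.816 to 0.511 percentage points. Apart from the goblet score, no gene named in the text that passed the test changed sign in any alternative run. The depth limits genes of a few CPM, such as Nt5e.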

Other observations

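Many called genes belonged to none of the lists. Of the 206 such genes that rose, 20 had provisional names, and the most abundant with a full name were Crip1, Prap1, Guca2b, Spink1, Sprr2a1, Sepp1, Pepd and Lgals3. These and the genes below were chosen after their values were seen. Sepp1, the selenium transport protein, rose most among them, from 1189 ± 294 CPM (SD, n = 4) to 2425 ± 467 CPM (log2 difference 1.04, SE 0.16). Lgals3, a galectin, rose from 606 to 1038 CPM (0.78), and Sprr2a1, a small proline-rich protein of barrier epithelia, from 1763 to 2942 CPM (0.79, adjusted p 0.045 by edgeR). Guca2b, the peptide uroguanylin, rose by 0.54, whereas its relative Guca2a fell by 0.57; a test of the difference between them was not run. The purine and pyrimidine enzymes Gda, guanine deaminase, and Upp1, uridine phosphorylase, rose by 0.69 and 0.45, and the pore-forming protein Gsdmd by 0.61. Each of these genes was higher in V3 in 4 of 4 mice.

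Of the 128 genes outside the lists that fell, 40 had provisional or pseudogene names. Lgals2, another galectin, was the most abundant with a full name and fell from 4302 to 2686 CPM (-0.72, SE 0.13). Several others, picked by hand and with no test as a group, are known from secretion. The granule-tethering GTPases Rab27a and Rab27b fell by 2.04 and 1.46, from low levels of 14.6 and 29.3 CPM in V2. The mucin-type glycan branching enzyme Gcnt3 fell by 1.13 and the secretory stress sensor Ern2 by 1.11. The protein disulfide isomerase relatives Txndc5 and Qsox1 fell by 0.91 and 0.82. The transcription factors Creb3l4, Foxa3 and Creb3l1 fell by 1.05, 0.96 and 0.92, from 17.2, 50.6 and 23.6 CPM in V2.

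Ctla4, an inhibitory receptor known from T cells, was counted at 253 ± 63.5 CPM (SD, n = 4) in V2 and 190 ± 63.1 CPM in V3 (-0.43, SE 0.12, adjusted p 0.033), while the 22 leukocyte markers in the table together held 0.00531% and 0.0115% of UMIs. Rab39 and Rrm2b, with 290 and 326 CPM in V2, had log2 differences of -0.46 and -0.45, beside a median of -0.36 for cytosolic ribosomal proteins. Which transcripts the counts of these 3 genes come from was not tested.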
